A study of Mus musculus with 2 samples.

Results

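The genes described here are 10 chemokines that myeloid cells are known to secrete, Ccl2, Ccl3, Ccl4, Ccl6, Ccl7, Ccl9, Cxcl2, Cxcl3, Ppbp and Pf4, taken by symbol from the 32285 genes counted in 2 mouse single-nucleus RNAseq libraries. All 10 symbols were found in both libraries. Both libraries came from C57BL6 mice, which were 10 to 14 weeks old, males and females mixed, with the injured tibias of 3 or 4 mice pooled before the nuclei were sorted. The first library held tissue from day 1 post-fracture (hematoma and periosteum), and the second held periosteum and callus at day 5 after musculoskeletal traumatic injury (MTI), a tibial fracture combined with mechanical injury of the muscles around it. The chemokines were measured across nuclei of the day 5 post-MTI library that carried markers of macrophages, monocytes, neutrophils and skeletal cells, and at day 1 in nuclei against barcodes with fewer than 200 genes, which serve as the estimate of free RNA. There was 1 library per condition, day and injury differed together between them, and no level is compared between the libraries.

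Chemokines are small secreted proteins that draw leukocytes along a gradient. Those named Ccl act mainly on Ccr receptors and those named Cxcl on Cxcr receptors, and binding opens a G protein signal in the leukocyte. Ccl2 and Ccl7 recruit monocytes through Ccr2, Ccl3 and Ccl4 draw macrophages and lymphocytes, Ccl6 and Ccl9 act on Ccr1, Cxcl2, Cxcl3 and Ppbp recruit neutrophils through Cxcr2, and Pf4 (platelet factor 4) and Ppbp are best known from the granules of platelets.

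The 10 genes lay in 2 clusters of the mouse genome (mm10). On chromosome 5, all on the plus strand, were Ppbp (90768518 to 90770063), Pf4 (90772435 to 90773383), Cxcl3 (90786103 to 90789600) and Cxcl2 (90903871 to 90905938), with 2.37 kb between Ppbp and Pf4. On chromosome 11, Ccl2 (82035571 to 82037453) and Ccl7 (82045712 to 82047525) were 8.26 kb apart, and Ccl9 (83572919 to 83578636), Ccl6 (83587882 to 83593087), Ccl3 (83647844 to 83649355) and Ccl4 (83662584 to 83664683) formed a second group, in which Ccl4 alone lay on the plus strand. In the transcripts of the annotation, Cxcl2 and Cxcl3 shared identical stretches of 91 bases, the length of a read here, and no other member shared one with another gene. Counts of Cxcl2 and Cxcl3 can therefore be split between them or lost, and their values are uncertain to that extent. Ccl2 and Ccl6 each overlapped a gene of the opposite strand (Gm17268 and E230016K23Rik).

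The promoters of 7 of the 10 genes were matched in the RefSeq table (GRCm38.p6). Those of 3 are shown from 250 bases before to 50 bases after the RefSeq start of the gene, 5′ to 3′ on the gene's strand. For Cxcl2 and Cxcl3 this is not the annotated start given above. The 3 were chosen because these neighbours on chromosome 5 share the receptor Cxcr2 and were all found in the Ptgr1 macrophage cluster and the monocytes described below. Capitals mark matches to the κB motif, the site recognised by NF-κB, searched on both strands.
Cxcl2, chr5:90903649-90903948: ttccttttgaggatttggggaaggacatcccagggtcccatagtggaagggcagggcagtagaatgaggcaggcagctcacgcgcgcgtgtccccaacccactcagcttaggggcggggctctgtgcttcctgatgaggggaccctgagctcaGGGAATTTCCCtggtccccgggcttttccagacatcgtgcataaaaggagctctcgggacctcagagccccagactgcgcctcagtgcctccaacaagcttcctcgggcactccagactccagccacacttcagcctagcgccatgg
Cxcl3, chr5:90785851-90786150: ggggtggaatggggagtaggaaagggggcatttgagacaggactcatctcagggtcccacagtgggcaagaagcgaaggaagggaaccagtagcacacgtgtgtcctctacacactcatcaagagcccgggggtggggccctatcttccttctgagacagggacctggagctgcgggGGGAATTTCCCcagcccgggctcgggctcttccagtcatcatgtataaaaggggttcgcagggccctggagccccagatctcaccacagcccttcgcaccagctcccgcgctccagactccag
Ppbp, chr5:90768268-90768567: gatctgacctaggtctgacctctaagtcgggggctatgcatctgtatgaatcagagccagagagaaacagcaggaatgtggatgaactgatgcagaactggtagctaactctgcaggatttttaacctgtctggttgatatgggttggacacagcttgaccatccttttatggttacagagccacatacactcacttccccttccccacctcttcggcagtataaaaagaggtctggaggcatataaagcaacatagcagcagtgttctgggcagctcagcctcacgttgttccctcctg
Cxcl2 had its κB matches between 97 and 87 bases before the RefSeq start and Cxcl3 between 73 and 63, in each case 2 overlapping matches on opposite strands. Ppbp had none in this window. Of the 7 promoters, 3 held the motif (Ccl9 was the other one), against 8.46% of the 32851 promoters of the table. The box TATAAA, which positions the transcription machinery, was found in Cxcl3, Ppbp and Ccl9, 3 of 7, against 13.6% of all promoters, TTNNGCAA (a C/EBP site) in Pf4 against 10.8%, and TGACTCA or TGAGTCA (an AP-1 site) in none of 7 against 5.20%. These are matches of letters and no binding was measured.

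The MTI library held 1446 barcodes and 5899407 UMIs, and the day 1 library 48987 barcodes with a median of 157 UMIs. They had 33 barcodes in common, 29 of them among the 1127 MTI nuclei retained after filtering. Clustering, done without the chemokines and their receptors, gave 274 macrophage-like nuclei (1237618 UMIs), 65 monocyte-like nuclei (209342 UMIs), 88 neutrophil-like nuclei (72539 UMIs) and 176 skeletal nuclei (1026523 UMIs). Their own marker lists summed to 5434, 2188, 10119 and 17708 counts per 1000000 UMIs (CPM). The monocyte-like nuclei were weakly named: 5 of 9 monocyte markers were up, and their macrophage marker list summed to 3009 CPM, 55.4% of the macrophage level, beside 2384 CPM of Arg1. The neutrophil-like nuclei were shallow, with a median of 738 UMIs against 4052 in macrophages, and also carried 1751 CPM of skeletal and 1640 CPM of myogenic markers. A count of 0 allows up to 2.42 CPM in macrophages, 14.3 in monocytes, 41.4 in neutrophils and 2.92 in skeletal nuclei. All intervals below are 95% and cover counting error only, since the nuclei of a library are not replicates, and no p-value is given.

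In the MTI callus, transcripts of these 10 chemokines were concentrated in the myeloid nuclei. The list was chosen as genes that myeloid cells secrete, so this describes the list and not chemokines in general. The 10 genes together gave 327 CPM in macrophages, 568 in monocytes and 703 in neutrophils, against 51.6 in skeletal and 9.29 in myogenic nuclei. Of the 51 member UMIs in neutrophils, 34 were of Cxcl2. A cluster named erythroid (890 CPM of erythroid markers) held 137 CPM of the members. It also held 7703 CPM of the immune marker list and 50.6% of the macrophage level of the macrophage marker list, so it is not a population free of myeloid RNA. Clusters left unnamed were led by Hspa1a (71 nuclei) and Klri1 (50) among immune nuclei, and by Elf5 (179) and Chodl (19) outside them. The Hspa1a nuclei were shallow (median 799 UMIs) and held 3503 CPM of macrophage markers. They also held Ccl7 at 76.8 CPM (24.9 to 179, 5 UMIs) and Ccl6 and Cxcl2 at 61.5 CPM (4 UMIs each). Of the 10, 7 members had at least 10 UMIs in macrophages and skeletal nuclei together, and 7 of these 7 were at least 2-fold higher in macrophages, against 19.8% of the 11988 genes that passed the same limit. Ccl4, Ccl6, Ccl9, Cxcl2 and Pf4 had 2 or 3 skeletal UMIs each and passed the limit only through the macrophages, so that their place in this count was largely set by the limit, and Ccl3, Cxcl3 and Ppbp did not pass it. With the same reservation, the count was 6 of 6 members in monocytes (18.0% of genes) and 2 of 3 in neutrophils (17.5% of genes).

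**Figure D1:**
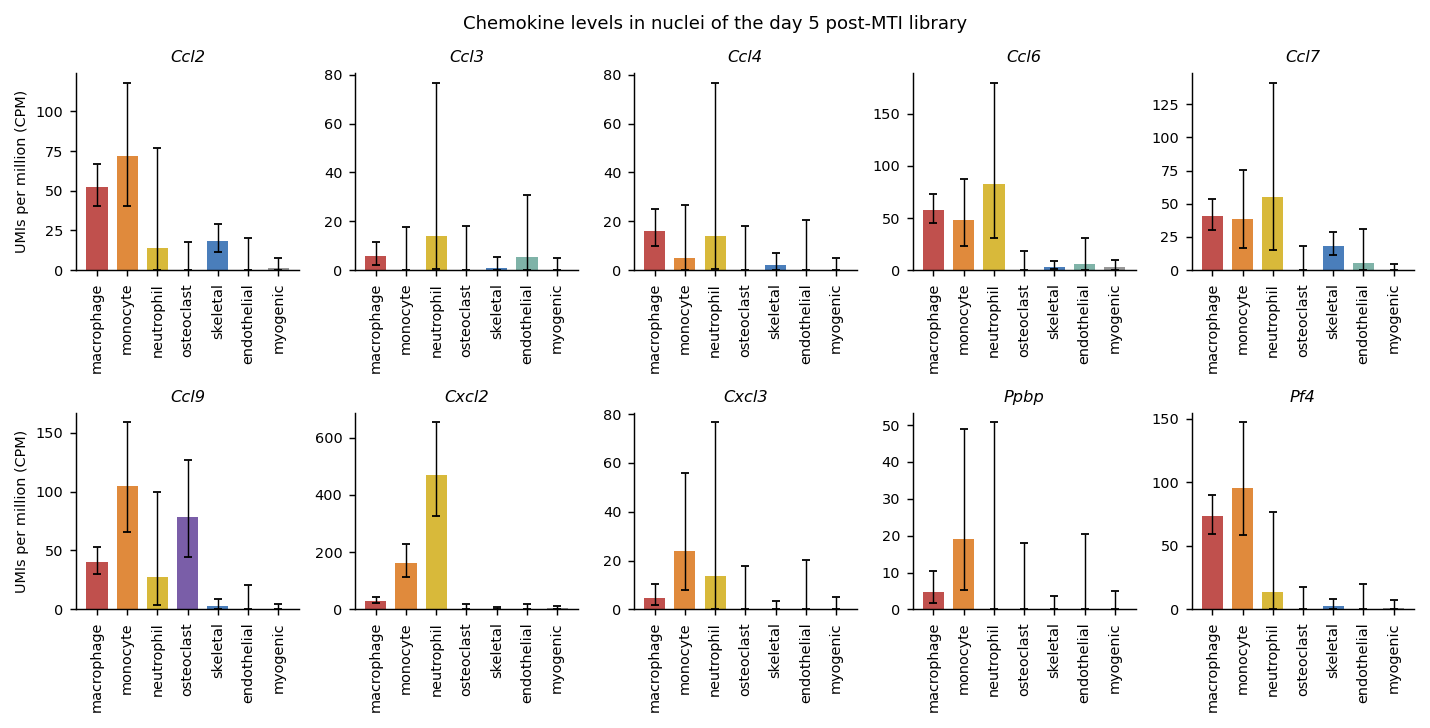
Level of each chemokine (CPM, linear axis, a scale of its own for each gene) in 7 populations of the day 5 post-MTI library. Bars are pooled levels and lines are 95% Poisson intervals; Cxcl2 is highest in neutrophils (469 CPM), Ccl9 is the member seen in osteoclasts, and Ccl2 and Ccl7 are the members seen above a few CPM in skeletal nuclei.

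Ccl2, the main ligand of the monocyte receptor Ccr2, was found at 52.5 CPM (40.5 to 66.9, 65 UMIs) in macrophages and 71.7 CPM (40.1 to 118, 15 UMIs) in monocytes. Skeletal nuclei held 18.5 CPM (11.1 to 28.9, 19 UMIs), neutrophils 13.8 CPM (1 UMI) and myogenic nuclei 1.33 CPM (1 UMI). Macrophages and monocytes could not be told apart for Ccl2 (ratio of monocytes to macrophages 1.36, 0.723 to 2.42), and both lay above skeletal nuclei, by 2.84-fold (1.68 to 5.01) and 3.87-fold (1.83 to 8.04). Osteoclast and endothelial nuclei had no Ccl2 UMI.

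Ccl7, which shares Ccr2 with Ccl2 and is its neighbour on chromosome 11, was found at 40.4 CPM (30 to 53.3, 50 UMIs) in macrophages, 38.2 CPM (8 UMIs) in monocytes, 55.1 CPM (4 UMIs) in neutrophils and 18.5 CPM (19 UMIs) in skeletal nuclei. The macrophage level was 2.18-fold (1.26 to 3.92) the skeletal one. The intervals of the monocyte and neutrophil ratios to skeletal nuclei, 0.782 to 4.94 and 0.737 to 8.96, included 1.

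The member UMIs in skeletal nuclei were thus mostly of the monocyte-recruiting pair. Their Ccl2 was 35.2% and their Ccl7 45.8% of the macrophage level, while their Pf4 was 3.97%, their Ccl6 5.02% and their macrophage marker list 4.77% of it. Ccl9 (7.23%), Cxcl2 (9.52%), Ccl4 (12.1%) and Ccl3 (17.2%) lay between, on 3, 3, 2 and 1 skeletal UMIs. The MTI library held no barcode under 500 UMIs, so its free RNA was not estimated, and a share of free RNA in these counts was not tested. The Ccl2 UMIs came from 11 of the 176 nuclei and the Ccl7 UMIs from 13, with at most 4 UMIs in 1 nucleus. Against the myogenic nuclei of the same library, Ccl2 was 13.9-fold (2.22 to 579) higher in skeletal nuclei and Ccl7, at 0 UMIs in myogenic nuclei, at least 4.65-fold higher.

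Ccl3 and Ccl4, known as MIP-1α and MIP-1β, were rare. Ccl3 had 7 UMIs in macrophages (5.66 CPM, 2.27 to 11.7, or 1.30 CPM when nuclei were assigned by their own marker sum), none in monocytes and 1 each in neutrophils and skeletal nuclei. Ccl4 had 20 UMIs in macrophages (16.2 CPM, 9.87 to 25.0), 1 each in monocytes and neutrophils and 2 in skeletal nuclei, from which macrophages differed 8.29-fold (2.01 to 73.2). For Ccl3 no difference between populations was detectable at this depth.

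Ccl6 and Ccl9, rodent chemokines of the Ccr1 group, differed in where they reached outside the macrophages. Ccl6 was at 58.2 CPM (45.5 to 73.3, 72 UMIs) in macrophages, 47.8 CPM (10 UMIs) in monocytes, 82.7 CPM (30.4 to 180, 6 UMIs) in neutrophils and 2.92 CPM (3 UMIs) in skeletal nuclei. The 3 myeloid intervals overlapped. The neutrophil Ccl6 level was 142% of the macrophage level, on 6 UMIs in 5 shallow nuclei, and the macrophage marker list in neutrophils was 11.2% of its macrophage level. A share of free RNA in these counts was not tested. Ccl9 was at 40.4 CPM (50 UMIs) in macrophages and 105 CPM (65.9 to 159, 22 UMIs) in monocytes, 2.60-fold higher (1.5 to 4.38). In neutrophils Ccl9 was at 27.6 CPM (3.34 to 99.6, 2 UMIs), an interval that overlapped that of Ccl6 there.

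Ccl9 was also the only member with a UMI in the 30 osteoclast-like nuclei. There it reached 78.0 CPM (44.6 to 127, 16 UMIs in 9 nuclei, up to 5 in 1 nucleus), 1.93-fold the macrophage level (1.03 to 3.45). The other 9 members had 0 of 205125 UMIs, which allows up to 14.6 CPM, so that macrophages exceeded osteoclasts by at least 5.03-fold for Pf4, 3.98-fold for Ccl6 and 3.59-fold for Ccl2. By the pooled ratio, 6 of the 7 members tested in this comparison were at least 2-fold lower in osteoclasts, against 25.7% of genes. All 6 had no osteoclast UMI and passed the limit only through the macrophages, so this count was largely set by the limit. For Ccl4 the count of 0 allows a bound of only 1.10-fold. Osteoclasts descend from the same monocyte lineage, and their macrophage marker list stood at 13.7% of the macrophage level.

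Cxcl2, a main neutrophil attractant, gave the steepest contrast among the members. It was at 469 CPM (325 to 655, 34 UMIs) in neutrophils, 162 CPM (112 to 227, 34 UMIs) in monocytes, 30.7 CPM (21.7 to 42.1, 38 UMIs) in macrophages and 2.92 CPM (3 UMIs) in skeletal nuclei. Neutrophils exceeded macrophages 15.3-fold (9.32 to 24.9) and monocytes 2.89-fold (1.74 to 4.79), and monocytes exceeded macrophages 5.29-fold (3.23 to 8.63). It was the single member of 7 that was at least 2-fold higher in neutrophils than in macrophages, against 16.2% of genes.

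The Cxcl2 UMIs were not evenly spread. In neutrophils they came from 18 of 88 nuclei with at most 5 UMIs each, while 1 of the 65 monocytes held 12 of 34 UMIs and 1 macrophage 10 of 38. Without the top nucleus the monocyte level was 107 CPM. With at least 500 genes per nucleus the nuclei were clustered anew, 57 were named neutrophils, and their level was 223 CPM. How far the removed nuclei and the moved borders of the clusters each contributed was not tested. After thinning every nucleus to 500 UMIs, 13.6% of neutrophils (7.25 to 22.6), 4.62% of monocytes (0.962 to 12.9), 1.46% of macrophages (0.399 to 3.70) and 0.935% of myogenic nuclei (0.0237 to 5.10) kept a Cxcl2 UMI. Unthinned, these shares were 20.5%, 13.8%, 5.11% and 2.80%, at median depths of 738, 2657, 4052 and 5843 UMIs.

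Cxcl3 and Ppbp were confined to few nuclei. Cxcl3 had 12 UMIs among the 1127 nuclei, 6 in 3 macrophages, 5 in 4 monocytes and 1 in a neutrophil. Ppbp had 10, 6 in 2 macrophages and 4 in 1 monocyte, with 5 UMIs in 1 of the macrophages. Of these, 4 of the 7 Cxcl3-positive macrophage and monocyte nuclei also held Cxcl2 (57.1%, against 5.72% of the 332 without Cxcl3), and none of them held Ppbp. Cxcl2 and Cxcl3 share stretches as long as a read, and a part of read assignment in this share was not tested. The macrophages with Cxcl3 all lay in the Ptgr1 cluster described below, where 6 of 45 nuclei held Cxcl2, as did 9 of 65 monocytes. Neither Cxcl3 nor Ppbp was seen in the skeletal, osteoclast, endothelial or myogenic nuclei.

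Pf4 was the most widely detected member in macrophages, with a UMI in 59 of 274 nuclei. Its level was 73.5 CPM (59.2 to 90.3, 91 UMIs) in macrophages, 95.5 CPM (58.4 to 148, 20 UMIs) in monocytes, 13.8 CPM (1 UMI) in neutrophils and 2.92 CPM (3 UMIs) in skeletal nuclei. Macrophages exceeded skeletal nuclei 25.2-fold (8.34 to 124), and monocytes did not differ from macrophages beyond counting error (ratio 1.30, 0.758 to 2.13). Thinned to 500 UMIs, 4.38% of macrophages (2.28 to 7.53) kept a Pf4 UMI, against 0 of 107 myogenic nuclei, which allows up to 2.80%.

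Pf4 and Ppbp are named for platelets, so the platelet and megakaryocyte markers were read in the same nuclei. Of 10 such markers, 5 had a UMI in macrophages, summing to 10.5 CPM, and 3 in monocytes, summing to 23.9 CPM. Gp9, Gp1ba and Gp1bb, which form the von Willebrand factor receptor of platelets, had no UMI among all 1127 nuclei. The other 7 markers had 43 UMIs there, among them 15 of Itga2b in 13 nuclei, 12 of Treml1 and 3 of Gp5. A share of platelet RNA in the Pf4 and Ppbp counts was not tested. The 13 UMIs in macrophages included 8 of Treml1, 6 of them in the cluster with Cd163.

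Between monocytes and macrophages the ratios of Cxcl2, Cxcl3 and Ccl9 had intervals above 1. Of 9 members with enough UMIs, 4 (Ccl9, Cxcl2, Cxcl3 and Ppbp) were at least 2-fold higher in monocytes, against 8.46% of genes, and Ccl4 was the one that was at least 2-fold lower (ratio 0.296, 0.00713 to 1.85). The Cxcl3 ratio was 4.93 (1.19 to 19.4), and that of Ppbp, 3.94, had an interval of 0.818 to 16.6 and rested on 3 nuclei. The monocyte levels changed with the filter and the clustering that followed it. Gene limits alone let in nuclei of higher mitochondrial content and moved the borders of the clusters, and 49 nuclei in place of 65 were named monocytes. In these Ccl2 stood at 288 CPM, Ccl9 at 220 CPM and Cxcl3 at 136 CPM, and Ppbp at 0. How far the admitted nuclei and the moved borders each contributed was not tested.

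The 274 macrophages comprised 4 clusters, called here by a leading gene. The Cd163 cluster (87 nuclei) was led also by Vsig4 and Mrc1, which mark resident-type macrophages, but it held 691 CPM of Arg1 as well. The Mmp12 cluster (72 nuclei) was led by this elastase with Il1rn, Gpnmb and Tnf and held 454 CPM of Arg1. The Ptgr1 cluster (45 nuclei) was led by the oxidative stress genes Prdx1, Gclm and Hmox1 and held 2140 CPM of Arg1. Its macrophage markers were the weakest of the 4 clusters, at 1.60-fold the level of all other retained nuclei, immune or not. The Dnase1l3 cluster (70 nuclei) was led by Gpr162, Cd4 and P2ry14 and held 87.8 CPM of Arg1 and 916 CPM of Mrc1.

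The chemokines were shared out unevenly among these clusters. All 10 together gave 478 CPM in the Cd163 cluster, 317 in the Mmp12 cluster, 495 in the Ptgr1 cluster and 69.0 in the Dnase1l3 cluster. In the last, 16 of 70 nuclei had a UMI of any member and 1 had 2 members, while in the Cd163 cluster 53 of 87 nuclei had a UMI and 28 had 2 or more members. The median depth was 4212 UMIs in the Dnase1l3 cluster and 3450 in the Cd163 cluster.

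**Figure D2:**
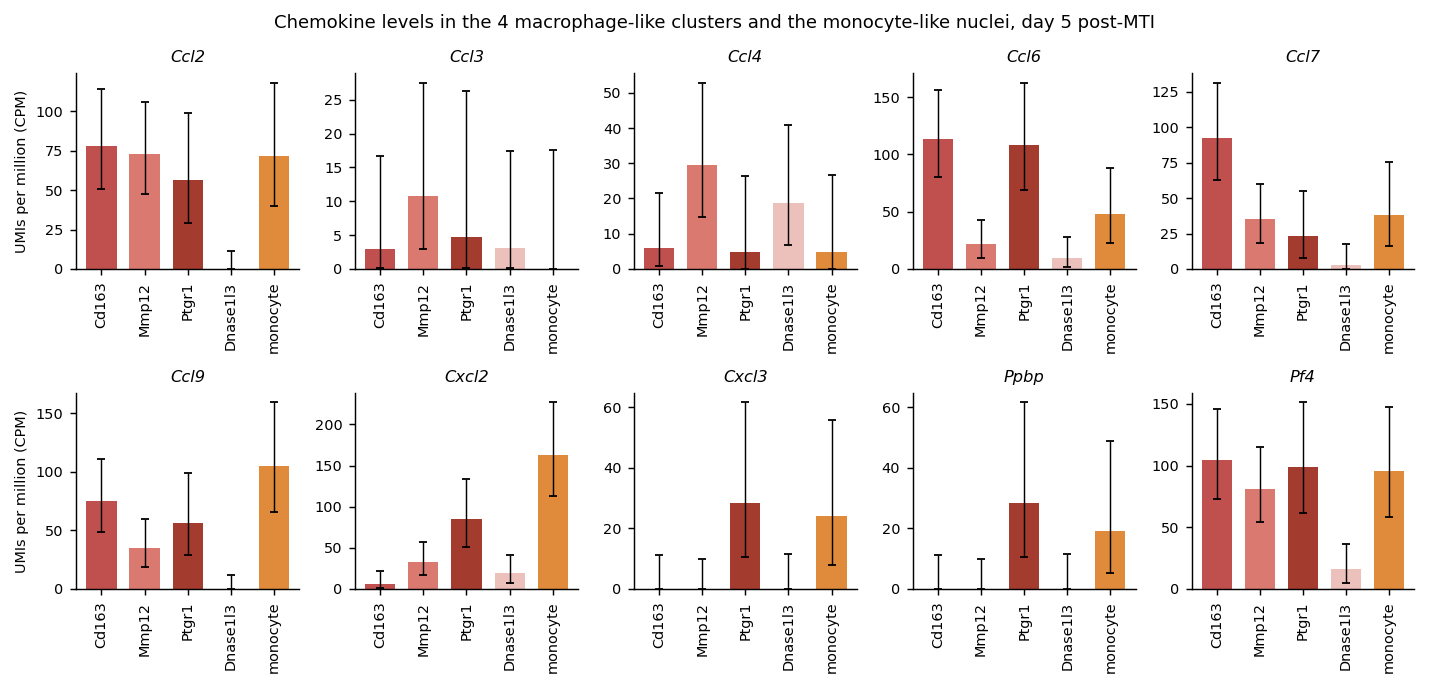
Level of each chemokine (CPM, linear axis, a scale of its own for each gene) in the 4 macrophage-like clusters, named by a leading gene, and in the monocyte-like nuclei of the day 5 post-MTI library. Bars are pooled levels and lines 95% Poisson intervals; the Dnase1l3 cluster is low for Ccl2, Ccl6, Ccl7, Ccl9 and Pf4 but not for Ccl4, and Cxcl3 and Ppbp appear in the Ptgr1 cluster and in monocytes.

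In the Dnase1l3 cluster Ccl2 and Ccl9 had no UMI, Ccl7 had 1, Ccl6 had 3 and Pf4 had 5. The other macrophages together held 65, 50, 49, 69 and 86 UMIs of these genes. The other macrophages were higher by at least 7.52-fold for Ccl2 and 5.79-fold for Ccl9, and the Dnase1l3 cluster had a Ccl7 level of 0.0588 (0.00146 to 0.343) times theirs, Ccl6 of 0.125 (0.0252 to 0.382) and Pf4 of 0.167 (0.053 to 0.406). Ccl4 went the other way, with 6 UMIs (18.8 CPM) and a ratio of 1.23 (0.389 to 3.42). Of 7 members tested 5 were at least 2-fold lower there, against 12.4% of genes, a description of clusters made from the same nuclei.

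Against the other macrophages pooled, the Cd163 cluster was high in Ccl7, Ccl6 and Ccl9. Ccl7 reached 92.7 CPM (63.0 to 132), 4.41-fold (2.41 to 8.25) the other macrophages. Ccl6 reached 114 CPM (80.4 to 156), 3.02-fold (1.85 to 4.94), although 1 nucleus held 11 of its 38 UMIs. Ccl9 reached 74.7 CPM (48.4 to 110), 2.70-fold (1.49 to 4.90). Those 3 of 7 members were at least 2-fold higher, against 5.63% of genes, while Cxcl2 with 2 UMIs stood at 0.150 (0.0175 to 0.583) of the other macrophages and Ccl4, also with 2 UMIs, at 0.300 (0.0338 to 1.25). The pool includes the Dnase1l3 cluster, which was low in Ccl7, Ccl6 and Ccl9. The Ptgr1 cluster held Ccl6 at 108 CPM (68.7 to 163) and Ccl9 at 56.6 CPM (29.2 to 98.8). The Mmp12 cluster held Ccl9 at 34.9 CPM (18.6 to 59.8). These intervals overlapped those of the Cd163 cluster. For Ccl7 the Ptgr1 (7.65 to 55.0) and Mmp12 (18.6 to 59.8) intervals lay below it.

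The Mmp12 cluster held most of the Ccl3 and Ccl4, with 4 of the 7 Ccl3 UMIs and 11 of the 20 Ccl4 UMIs of the macrophages. Its Ccl4 level was 29.6 CPM (14.8 to 52.9), 2.84-fold (1.07 to 7.76) the others. Its Ccl6 level was 21.5 CPM, 0.291 (0.120 to 0.608) of the others, while its Ccl2 (72.6 CPM, 47.8 to 106) lay within the interval of the Cd163 cluster. Of its 12 Cxcl2 UMIs, 10 came from 1 nucleus.

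The Ptgr1 cluster held all 6 Cxcl3 and all 6 Ppbp UMIs of the macrophages. Its Cxcl2 level was 84.8 CPM (50.3 to 134, 18 UMIs in 6 nuclei), 4.35-fold (2.17 to 8.66) the other macrophages, and its Ccl6 level 108 CPM (68.7 to 163), 2.27-fold (1.32 to 3.79). Pf4 did not differ beyond counting error between the Cd163 (105 CPM), Mmp12 (80.6 CPM) and Ptgr1 (99.0 CPM) clusters, whose intervals overlapped. Counted over the Ptgr1 cluster, Cxcl3 was at least 9.67-fold higher than in the other macrophages, where it had no UMI.

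Within single nuclei, Ccl2 was often held together with Ccl6, Ccl7 and Ccl9. Among the 339 macrophage and monocyte nuclei, 42 held Ccl2, and 35.7% of these held Ccl7, 35.7% Ccl6 and 31.0% Ccl9, against 8.08%, 9.09% and 9.43% of the 297 without Ccl2. The median depths of these groups, 3987 and 3659 UMIs, were close. The rarer CC members did not all do so: none of the 5 nuclei with Ccl3 held Ccl4, and 1 of the 15 with Ccl4 held Ccl7 (6.67%, against 11.7% of those without). Pf4 was less tied to the others, being held by 33.3% of the Ccl2-positive and 18.9% of the Ccl2-negative nuclei, and by 21.4% of the Ccl6-positive and 20.5% of the Ccl6-negative ones. Clusters differ in both genes of each pair, and how far that carries these shares was not tested.

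Across the 13 clusters of all nuclei, the genes whose log2 levels went most closely with a member were named for the 6 members with at least 30 UMIs. Cxcl2 went with F10 (Pearson r = 0.966), Alox5 (0.949) and Dhrs9 (0.945), where Alox5 encodes the lipoxygenase that opens leukotriene synthesis. Pf4 went with Hmox1 (0.921), Ccl2 with Slc7a8 (0.919) and Lrp1 (0.913), Ccl6 with Pde1b (0.899) and Ccl7 with the complement receptor gene C5ar1 (0.897). Ccl9 went with M6pr (0.874), Tiparp (0.871) and Slc37a2 (0.868). The 13 points share 1 library and differ in depth, so these are descriptions.

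Receptors of these and of related chemokines followed the myeloid populations in part. Of 11 receptor genes, 5 had enough UMIs in macrophages and skeletal nuclei, of which Ccr1 and Ccr2 are receptors of members. Ccr1, Ccr2, Cxcr4 and Cx3cr1 were at least 2-fold higher in macrophages, 4 of 5 against 19.8% of all genes, and Ackr3 was lower. Those 4 had 4, 2, 2 and 6 skeletal UMIs and passed the limit only through the macrophages. Their place in this count was therefore largely set by the limit. Ccr2, the receptor of Ccl2 and Ccl7, was at 554 CPM (458 to 665) in monocytes, 80.8 CPM (65.7 to 98.3) in macrophages and 13.8 CPM (1 UMI) in neutrophils, with 2 UMIs in skeletal nuclei. Within the macrophages Ccr2 was at 107 CPM (73.8 to 149) in the Dnase1l3 cluster, where 1 nucleus held 17 of the 34 UMIs, and at 111 CPM (77.9 to 152) in the Cd163 cluster.

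Ccr1, which Ccl6 and Ccl9 engage, was at 317 CPM (201 to 476) in neutrophils, 177 CPM (124 to 244) in monocytes, 112 CPM (71.1 to 168, 11 of 23 UMIs in 1 nucleus) in osteoclasts and 44.4 CPM (33.5 to 57.8) in macrophages. Osteoclasts had Ccr2 at 0 UMIs. Cxcr2, the receptor of Cxcl2, Cxcl3 and Ppbp, was at 414 CPM (279 to 590, 30 UMIs) in neutrophils, where Cxcl2 was also highest, and had 4 UMIs in macrophages and 3 in skeletal nuclei. Ackr3, a scavenging receptor, was at 52.6 CPM (39.5 to 68.6) in skeletal nuclei, 57.3 CPM (29.6 to 100.1) in monocytes, 38.7 CPM (15.5 to 79.7) in endothelial nuclei and 8.89 CPM (4.44 to 15.9) in macrophages.

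**Figure D3:**
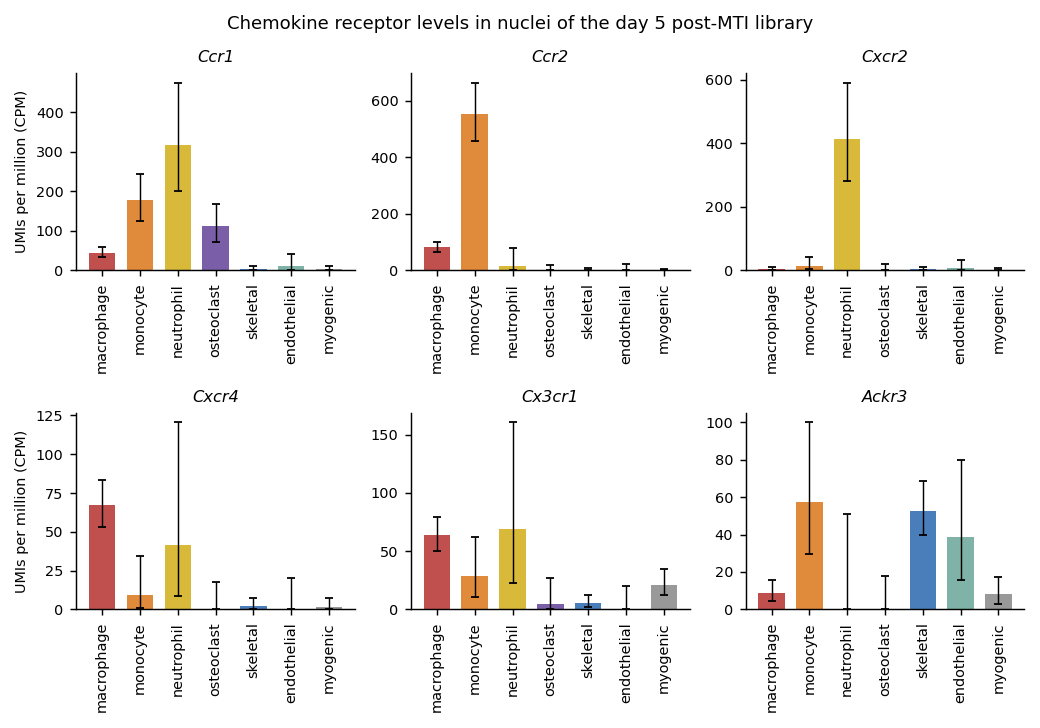
Level of 6 chemokine receptor genes (CPM, linear axis, a scale of its own for each gene) in 7 populations of the day 5 post-MTI library, as pooled levels (bars) with 95% Poisson intervals (lines). Ccr2 is highest in monocytes (554 CPM), Cxcr2 in neutrophils (414 CPM), and Ccr1 is seen in osteoclasts (112 CPM, 11 of 23 UMIs from 1 nucleus) as well as in leukocytes.

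Of the 16 other chemokines on the list, most were scarce. Of these, 6 had enough UMIs in macrophages and skeletal nuclei, 3 higher in macrophages (Ccl8, Ccl12 and Cxcl16) and 3 higher in skeletal nuclei (Cxcl5, Cxcl12 and Cxcl1). Each passed the limit only through the side where it was higher, so this count was largely set by the limit. Cxcl16 was at 194 CPM in the Dnase1l3 cluster, the cluster low in the members, and Ccl8 had 16 of its 17 macrophage UMIs in the Cd163 cluster. Cxcl5 and Cxcl1, the other Cxcr2 ligands measured, had 41 and 10 UMIs in skeletal nuclei and 0 and 3 in macrophages. The skeletal UMIs came from few nuclei, 9 for Cxcl5 (14 UMIs in 1 nucleus) and 5 for Cxcl1 (4 in 1 nucleus). Among these neutrophil attractants, most UMIs of Cxcl5 and Cxcl1 lay in skeletal nuclei and most of Cxcl2, Cxcl3 and Ppbp in myeloid nuclei. This only describes where few UMIs lay. Cxcl3 and Ppbp did not pass the limit, and for the others the limit largely set the count. Among 15 genes of NF-κB signalling and its inflammatory targets, 14 were tested in macrophages, with 7 at least 2-fold higher and 3 lower than in skeletal nuclei, against 19.8% and 26.4% of all genes, and Il1b was at 2909 CPM in neutrophils, 268 in monocytes (29 of 56 UMIs in 1 nucleus) and 22.6 in macrophages.

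At day 1 post-fracture 8 of the 10 genes were at higher levels in barcodes under 200 genes than in the retained nuclei, with intervals of the ratio below 1, and Pf4 and Ppbp had intervals that included 1. The 43464 barcodes under 200 genes (6848386 UMIs) held 252 CPM of Ccl2, 224 of Ccl7, 239 of Cxcl2 and 105 of Cxcl3. The 2405 retained nuclei (1202240 UMIs, median 409) held 125, 99.8, 131 and 50.7 CPM of these genes. Each of the 4 was lower in the nuclei. Muscle nuclei, which the paper removed, were kept among the retained nuclei. Nuclei with 5 or more myogenic marker UMIs and none of the immune or skeletal lists held 132, 104, 119 and 54.2 CPM of these genes. Those were read at the 5% mitochondrial limit. How far muscle nuclei set the retained levels was not tested.

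The ratio of nuclei to barcodes under 200 genes for Ccl2 was 0.494 (0.416 to 0.585) and for its partner Ccl7 0.446 (0.367 to 0.537). For the neutrophil attractants it was 0.550 (0.465 to 0.648, Cxcl2) and 0.481 (0.364 to 0.626, Cxcl3). Ccl3, Ccl4, Ccl6 and Ccl9 gave 0.391, 0.481, 0.408 and 0.456, with upper bounds between 0.651 and 0.766. None of the 10 members was at least 2-fold higher in the nuclei, against 6.73% of the 22216 genes tested, and 7 were at least 2-fold lower, against 8.70% of genes. The median ratio was 0.481 over the members and 1.06 over all genes.

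Pf4 and Ppbp stood apart by their low counts. Pf4 had 91 UMIs in barcodes under 200 genes (13.3 CPM) and 8 in nuclei (6.65 CPM), with a ratio of 0.501 (0.210 to 1.03). Ppbp had 22 and 4 UMIs, 3.21 and 3.33 CPM, and a ratio of 1.04 (0.259 to 3.05). The platelet genes Gp9 and Gp1ba had 2 and 4 UMIs in the barcodes under 200 genes and Gp1bb had 0, against 91 of Pf4 and 22 of Ppbp. These are only part of the platelet list, and at so few UMIs they do not tell how much platelet RNA was present.

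**Figure D4:**
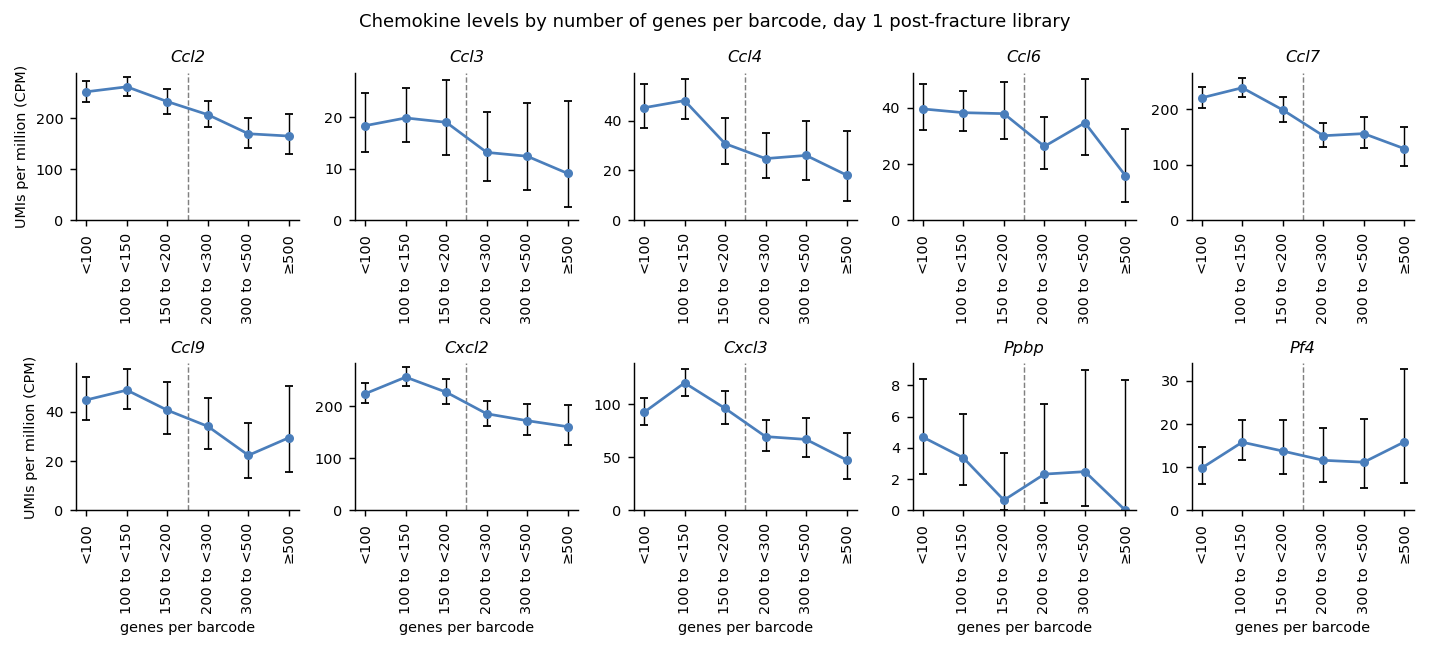
Level of each chemokine (CPM, linear axis, a scale of its own for each gene) in 6 ranges of genes per barcode of the day 1 post-fracture library, with 95% Poisson intervals; the dashed line marks 200 genes. Ccl2 goes from 262 CPM at 100 to under 150 genes to 165 CPM at 500 or more, and Ccl7 and Cxcl2 fall in the same way, while Pf4 stays between 9.81 and 15.9 CPM.

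The levels of Ccl2, Ccl7, Cxcl2 and Cxcl3 were lower at 500 or more genes per barcode than under 200. Ccl2 stood at 262 CPM from 100 to under 150 genes, 207 CPM from 200 to under 300, 170 CPM from 300 to under 500 and 165 CPM at 500 or more. Cxcl3 stood at 120, 69.6, 67.0 and 47.6 CPM over the same ranges. The mitochondrial limit moved the result: with 5% in place of 0.5%, 5414 nuclei were kept, Ccl2 was at 182 CPM and Cxcl2 at 178 CPM, the ratios lay between 0.548 and 0.907, and 0 of 10 members were at least 2-fold lower.

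Day 1 nuclei that carried markers of a cell type were read at the 5% mitochondrial limit. The 241 nuclei with 2 or more macrophage marker UMIs held 363 CPM of Ccl2 (270 to 479) and 327 CPM of Ccl7 (239 to 438), which was 1.44 (1.06 to 1.91) and 1.46 (1.06 to 1.96) times the barcodes under 200 genes. In them Pf4 was at 36.3 CPM (5 UMIs), 2.73 times that background (0.867 to 6.62), and it was the single member of 10 past 2-fold, against 16.1% of genes. The 89 nuclei with neutrophil markers held 385 CPM of Cxcl2 (235 to 594), a ratio of 1.61 (0.982 to 2.5).

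The 164 nuclei with monocyte markers had ratios above 1 for Pf4 (3.05, 0.813 to 8.08), Ccl6 (1.83, 0.730 to 3.83), Ccl3 (1.59, 0.323 to 4.75), Cxcl2 (1.19, 0.787 to 1.72) and Cxcl3 (1.06, 0.525 to 1.90), and each interval included 1. Nuclei with skeletal or myogenic markers were low in several members. The 409 nuclei with skeletal markers held 178 CPM of Ccl2 (ratio 0.704, 0.517 to 0.938) and 37.0 CPM of Cxcl3 (0.351, 0.168 to 0.650), and no UMI of Pf4. The 1062 nuclei with 5 or more myogenic marker UMIs and none of the immune or skeletal lists still held 132 CPM of Ccl2 and 119 CPM of Cxcl2, 0.524 and 0.499 of the level in barcodes under 200 genes. Myoblasts and myofibres stand here as cells outside the myeloid lineage, and a level at or below theirs is read as background. For the 4 genes Ccl2, Ccl7, Cxcl2 and Cxcl3, the barcodes under 200 genes were a higher reference than the myogenic nuclei. Of these, Ccl2 and Ccl7 had an interval above the barcodes under 200 genes in the nuclei with macrophage markers. None did in the nuclei with monocyte, neutrophil, skeletal or myogenic markers. Against the myogenic Cxcl2 level (89.8 to 155 CPM), Cxcl2 was higher with neutrophil (235 to 594), macrophage (202 to 387) and monocyte markers (188 to 410). The Cxcl3 intervals of these groups overlapped the myogenic one. The myogenic group was chosen to hold no marker of the immune or skeletal lists, so the selection bears on this Cxcl2 contrast. Its median mitochondrial share was 0.368%, against 0.754 to 0.993% in the macrophage, monocyte and neutrophil groups. Nuclei at 0.5 to 5% mitochondrial UMIs, whatever their markers, held 221 CPM of Cxcl2 (196 to 248). How far selection or mitochondrial content carries the contrast was not tested.

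**Figure D5:**
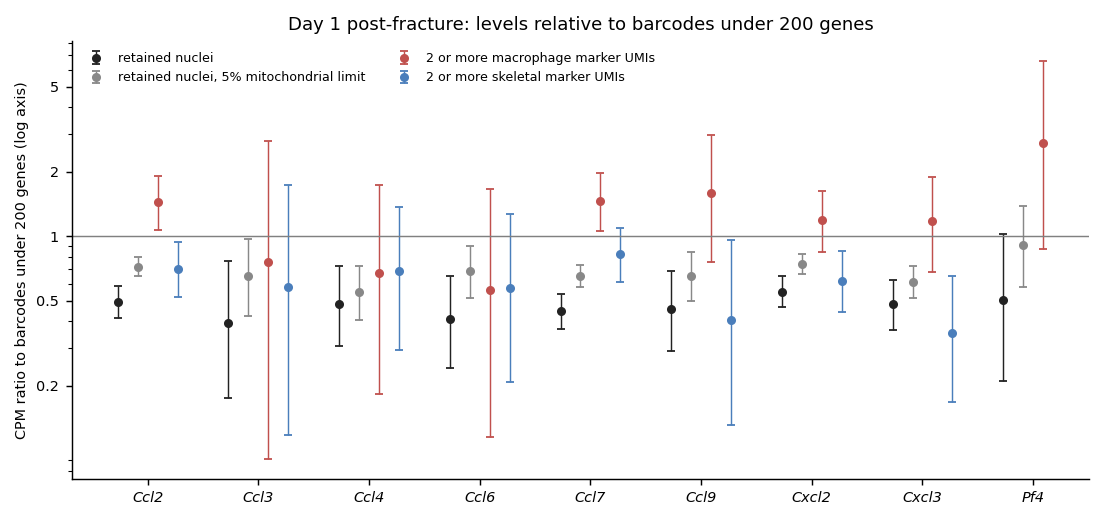
Ratio of the level in 4 groups of day 1 post-fracture nuclei to that in barcodes under 200 genes (log axis, line at 1) for 9 chemokines, Ppbp left out for its low count, with 95% intervals; Pf4 has no point for nuclei with skeletal markers, where it had no UMI. Retained nuclei lie between 0.391 and 0.550, and in the nuclei with macrophage markers the intervals of Ccl2 (1.44) and Ccl7 (1.46) lie above 1, while Ccl9 (1.60), Cxcl2 (1.19), Cxcl3 (1.17) and Pf4 (2.73) have intervals that include 1.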

How the data were processed

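Nuclei of the 2 libraries were prepared with 10x 3′ chemistry. The authors counted UMIs per gene and barcode, exonic and intronic reads together, with Cell Ranger 7.0.1 on mm10, and deposited the counts without normalization, as raw UMI counts. The labels also name a human reference, but the gene identifiers are mouse. The members and lists were chosen with earlier results of these data known.

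From the counts, MTI nuclei with 200 to 5000 genes and shares of mitochondrial and ribosomal UMIs below 5% and 2% were clustered in Seurat 5.3.0 (R 4.3.3, 30 components, resolution 1, and 20 components, resolution 1.5 for the immune subset), with members, other chemokines and receptors left out. Clusters were named from marker lists, at least 3 markers being 1.5-fold up. Names are therefore rebuilt and not the authors' own. At day 1 the same gene limits were used with mitochondrial and ribosomal shares below 0.5% and 2.5%. Myogenic nuclei, which the paper removed, were kept in both libraries. Scrublet in scanpy 1.11.5 called 3 of the 1127 MTI nuclei doublets, and they were kept, since leaving them out was run as an alternative.

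Levels are counts per 1000000 UMIs (CPM) pooled over the nuclei of a population, with exact Poisson intervals. Ratios have exact conditional binomial intervals and shares Clopper-Pearson intervals (scipy 1.17.1). A gene was tested with at least 10 UMIs in both populations together and counted past 2-fold. A count of 0 was read as up to 3 counts. All 10 members were measured in every population, but those of the erythroid and unnamed clusters are given only in part. Likeness used log2(CPM + 10) over clusters and genes with at least 50 UMIs, 3 per member. Tested on simulated data for macrophage over skeletal nuclei (11632 genes), the rule called 87.0% of 3-fold and 100% of 6-fold changes and 1.21% of unchanged genes. The changed genes had larger expected counts than Ccl3, Ccl4, Cxcl3 and Ppbp, and UMIs were not clumped in single nuclei. The shallower monocyte and neutrophil comparisons were not simulated, so these rates do not carry over to them or to the rarer members. Alternatives covered limits on nuclei, clustering, population definition, summary, the dominant nucleus and the definition of free RNA. One receptor of the list is not reported here.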

Additional observations from a re-analysis of the deposited data

Results flagged for a closer look

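The populations of the report were made without the 319 MTI barcodes that failed its limits, most of which entered only the alternative with gene limits alone (293 with 5% or more mitochondrial UMIs, 21 with over 5000 genes and 13 with 2% or more ribosomal UMIs). In their 1562070 UMIs, where a count of 0 allows up to 1.92 CPM, 8 of the 10 chemokines lay above that limit. Ccl2 was at 47.4 CPM (74 UMIs, 20 of them in 1 barcode), Ccl9 at 40.3 CPM, Cxcl2 at 19.8 CPM and Ccl6 at 19.2 CPM. Ccl7 was at 13.4 CPM, Pf4 at 11.5 CPM, Cxcl3 at 10.9 CPM (17 UMIs in 5 barcodes) and Ccl4 at 7.04 CPM. Ccl3 and Ppbp had no UMI there. The 17 Cxcl3 UMIs exceeded the 12 of all retained nuclei.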

How the results depend on the processing

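No paired analysis was possible because each group has 1 library. The count of members at least 2-fold above skeletal nuclei stayed between 6 and 9 for macrophages and between 4 and 7 for monocytes over all alternatives. For neutrophils it went from 2 to 4 when nuclei were assigned by their own marker sum, to 1 with the mean of per-nucleus CPM and to 1 without the dominant nucleus. The cause was not tested. At day 1, 0 members were at least 2-fold higher in nuclei under all alternatives, while the 7 lower became 0 with the 5% mitochondrial limit and 0 with gene limits alone. Cxcl2 in neutrophils was 198 CPM by own marker sum. Ccl6 in macrophages was 35.2 CPM by own marker sum, and Ppbp there 0.811 CPM without the dominant nucleus. Leaving out doublets or the shared barcodes, chosen after seeing the data, gave 7, 6 and 2 members for macrophages, monocytes and neutrophils. The summed members of the Dnase1l3 cluster were 0.165 of the other macrophages, and 0.167 to 0.197 under 4 other clusterings, also chosen after seeing the data. The 88 shallow neutrophil nuclei limit what could be seen there.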
